A study of Brassica napus with 10 samples.

Results

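The ER stress gene list of the study holds 71 *Brassica napus* genes, of which 12 are named bZIP17, bZIP28, S1P or S2P. All listed genes with these names and a row in the raw counts were taken, which gave 9 genes out of 59458 with counts. They are 5 transcription factor copies (bZIP28.1, bZIP17.1, bZIP17.2, bZIP17.3 and bZIP17.4) and 4 protease copies (S1P.1, S1P.2, S2P.2 and S2P.3). The other 3 listed genes (C09p56520.1_BnaDAR and C09p56530.1_BnaDAR for S1P, C09p28840.1_BnaDAR for bZIP17) were not analysed here.

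RNA was sequenced from 10 libraries of 3-day-old microspore cultures of the genotype DH12075, all carrying the pLEC1:LEC1-GFP reporter, in which the promoter of the embryo regulator LEC1 drives a LEC1-GFP fusion. The 3 pollen libraries were unsorted cultures that had developed as pollen at 18 °C. The HS + TSAlow group (4 libraries) and the HS + TSAhigh group (3 libraries) came from cultures given a heat shock (HS) with 0.05 or 0.5 µM trichostatin A (TSA), an inhibitor of histone deacetylases, and sorted by flow cytometry for GFP, with 150000 cells pooled per replicate. Heat shock, TSA and sorting were all absent from pollen. By the paper's methods, heat and TSA ended after the first day, followed by fresh medium and a warmer culture than that of pollen. The parts of all these steps in any difference from pollen cannot be told apart. Lower RNA per cell and fewer cells of a type cannot be told apart in such pooled samples either. Sorting for the reporter selects cells that express LEC1-GFP and does not separate the kinds of embryogenic structure. Markers of embryo and pollen cells were not matched to gene identifiers, so the labelled cell types were not checked.

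bZIP17 and bZIP28 are membrane-anchored basic leucine zipper transcription factors. In arabidopsis they sit in the membrane of the endoplasmic reticulum (ER) and, when unfolded proteins accumulate or under heat or salt stress, move to the Golgi. There the site-1 protease S1P, a subtilisin-like serine protease, is described as cutting the lumenal part. S2P, an intramembrane metalloprotease, is known for releasing the cytosolic part, which enters the nucleus and activates genes for chaperones. This activation acts on the protein, whereas the libraries measured RNA, so whether each factor needs both proteases was not tested. BiP, the main ER chaperone, binds the lumenal tail of bZIP28 and holds it in the ER.

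On the Darmor-bzh version 10 genome, bZIP28.1 (A09p34290.1_BnaDAR) lies on chromosome A09 at 34140669–34143126. bZIP17.1 (A04p31300.1_BnaDAR) lies on A04 at 21025926–21028273. The other bZIP17 copies all lie on C04: bZIP17.2 (C04p02350.1_BnaDAR) at 2273468–2275813, bZIP17.3 (C04p20520.1_BnaDAR) at 16332029–16336870 and bZIP17.4 (C04p68700.1_BnaDAR) at 63311880–63314189. All 5 factor copies are on the minus strand. bZIP17.3 differs from the rest in its gene model, which has 7 exons and 806 exon bases, while bZIP28.1, bZIP17.1, bZIP17.2 and bZIP17.4 each have 2 exons and 2008 to 2381 exon bases. Among the protease copies, S1P.1 (A03p09570.1_BnaDAR) is at 3957709–3962071 on A03 and S1P.2 (C03p11140.1_BnaDAR) at 5369970–5374380 on C03, both on the minus strand with 10 exons. S2P.2 (A01p12010.1_BnaDAR) is at 6091074–6093344 on A01 and S2P.3 (C01p14260.1_BnaDAR) at 8751689–8753993 on C01, both on the plus strand with 7 exons. Each S1P and S2P pair therefore has 1 member in the A subgenome and 1 in the C subgenome. A read that matches several copies equally could be assigned to a wrong copy or lost, and how the counting treated such reads was not tested.

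Library totals were 93367646 to 109105528 counts in pollen and 51838498 to 67884748 in the HS + TSA groups. The 9 genes had 50 to 4220 counts per library, apart from 3 values of 0. Levels are given as CPM (counts scaled to a common library size) after TMM scaling, and comparisons between genes as CPM per kilobase (kb) of counted exon. HS + TSAlow libraries 1 and 4 were nearer to each other than any other replicates: the mean chi-square per gene between them was 7.38, where sampling noise alone gives 1, against 22.2 to 95.0 for all other replicate pairs. They were kept as separate replicates.

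Against pollen, the only members that changed were lower: 3 of 9 in HS + TSAlow (bZIP28.1, bZIP17.1 and S1P.2) and 2 of 9 in HS + TSAhigh (bZIP28.1 and bZIP17.1). Higher members numbered 0 in both comparisons with edgeR, DESeq2 and limma-voom, and 0 at an unadjusted p under 0.05 in edgeR. Over all 45264 genes tested with edgeR, 17.35% were called lower and 26.4% higher in HS + TSAlow than in pollen. A call needs a p of at most 0.05 after Benjamini-Hochberg adjustment. In HS + TSAhigh 18.8% were lower and 27.5% higher. The counts of lower members thus lie at 3 of 9 and 2 of 9 where the background is 17.35% and 18.8%. The median log2 fold change of the 9 members was -0.49 in HS + TSAlow and -0.38 in HS + TSAhigh, beside 0.10 and 0.09 over all genes tested. Both comparisons share the pollen libraries. Without HS + TSAlow libraries 1 and 4, which were so near to each other, 1 member (bZIP28.1) was called lower in HS + TSAlow, while bZIP17.1 and S1P.2 had log2 fold changes of -0.61 and -0.80 and did not pass. Without those and HS + TSAhigh library 1, bZIP17.1 was called again and S1P.2 was not (adjusted p = 0.094).

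bZIP28.1 was the most abundant member per kb in pollen, at 16.8 ± 1.04 CPM per kb (SD, n = 3), and it was lower in both HS + TSA groups. Its level in the pollen libraries was 38.7, 42.8 and 38.2 CPM. In HS + TSAlow it was 16.6, 14.4, 19.5 and 17.9 CPM. In HS + TSAhigh it was 14.2, 25.9 and 25.7 CPM. Every HS + TSA library lay below every pollen library, and HS + TSAhigh library 1 lay well below the other libraries of its group. The log2 fold change was -1.22 in HS + TSAlow (SE 0.21, edgeR adjusted p = 0.000726) and -0.86 in HS + TSAhigh (SE 0.23, adjusted p = 0.00893). bZIP28.1 did not pass the test between the HS + TSA groups (log2 fold change 0.36, SE 0.21, edgeR adjusted p = 0.302). Without HS + TSAhigh library 1 it did (log2 fold change 0.59, adjusted p = 0.0341).

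bZIP17.1 was the other factor copy that fell in both groups. It had 26.0, 23.3 and 24.3 CPM in pollen and 16.0, 15.8, 16.4 and 18.3 CPM in HS + TSAlow. In HS + TSAhigh the levels were 9.38, 14.6 and 12.0 CPM. The groups did not overlap in any of the 3 comparisons: pollen was highest and HS + TSAhigh lowest. The log2 fold change was -0.56 in HS + TSAlow (SE 0.18, edgeR adjusted p = 0.0249) and -1.03 in HS + TSAhigh (SE 0.20, adjusted p = 0.00117). Between the HS + TSA groups it was -0.47 (SE 0.18), which did not pass after adjustment (unadjusted p = 0.0239, edgeR adjusted p = 0.118). The call in HS + TSAlow was lost without any 1 of the pollen libraries or without HS + TSAlow library 1 (adjusted p = 0.0538 to 0.0823), with log2 fold changes of -0.60 to -0.52. The gene model A04p31290.1_BnaDAR on the opposite strand shares 106 exon bases with bZIP17.1, and the library kit does not mark strand. That gene had 0.0551 to 1.25 CPM over the 10 libraries, far below bZIP17.1.

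**Figure D1:**
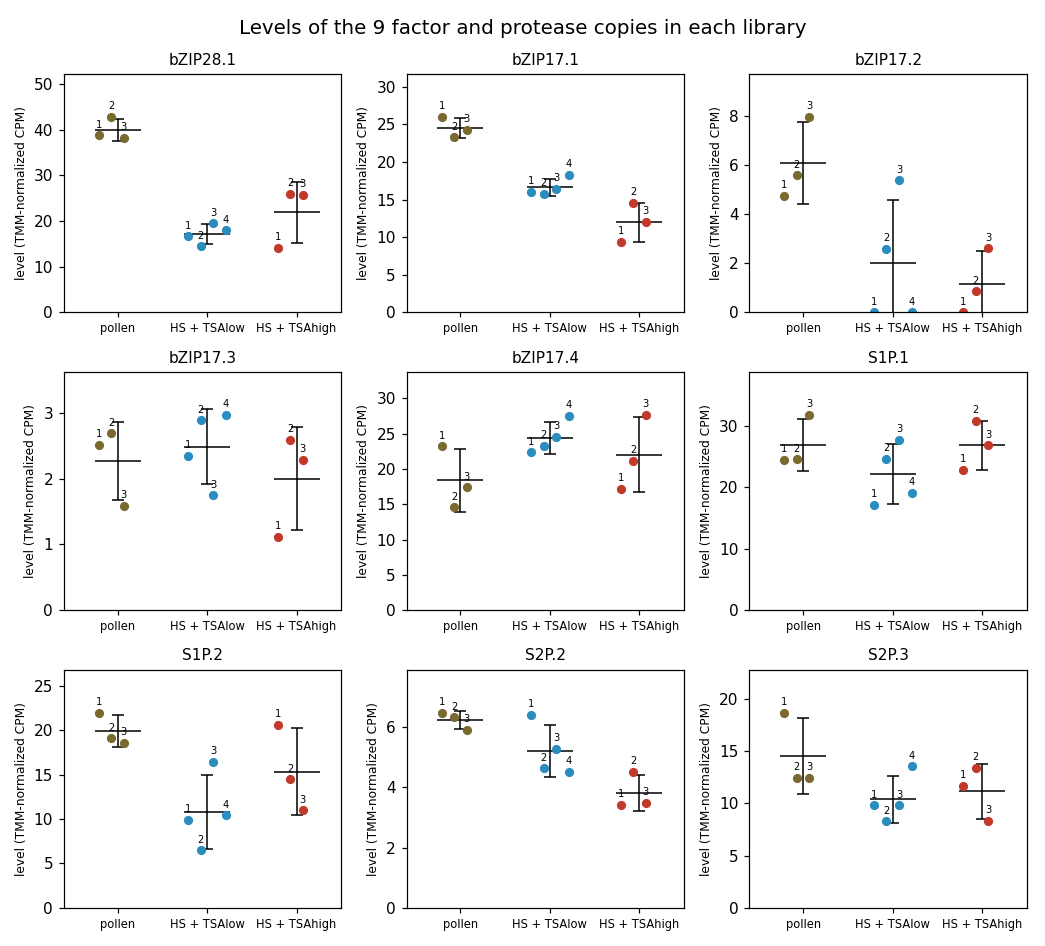
Each panel plots 1 of the 9 copies, with its level in TMM-normalized CPM on the y axis (from 0) and the 3 groups on the x axis. Points are libraries with their replicate number, and bars are the mean ± SD (n = 3, 4 and 3). bZIP28.1 and bZIP17.1 are highest in all 3 pollen libraries, and bZIP17.2 is at 0 in HS + TSAlow libraries 1 and 4 and HS + TSAhigh library 1.

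bZIP17.4 did not pass the test in any comparison, and its fold changes against pollen were above 0. Its levels were 23.2, 14.5 and 17.41 CPM in pollen, 22.3, 23.3, 24.6 and 27.5 CPM in HS + TSAlow and 17.23, 21.2 and 27.7 CPM in HS + TSAhigh. All 3 groups overlapped. The log2 fold change was 0.41 in HS + TSAlow (SE 0.21, edgeR adjusted p = 0.138) and 0.26 in HS + TSAhigh (SE 0.22, adjusted p = 0.366).

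bZIP17.3, the copy with the short model, was low in all groups. It had 2.52, 2.69 and 1.59 CPM in pollen, 2.35, 2.89, 1.75 and 2.98 CPM in HS + TSAlow and 1.11, 2.60 and 2.29 CPM in HS + TSAhigh. The groups overlapped, and none of the 3 comparisons passed (log2 fold changes -0.32 to 0.14, SE 0.44 to 0.47, edgeR adjusted p = 0.686 to 0.824).

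Within the bZIP17 family, the leading copy therefore differed between pollen and the HS + TSA groups. bZIP17.1 held 44.7 ± 1.73% of the summed bZIP17 CPM per kb in pollen (SD, n = 3), 33.4 ± 1.80% in HS + TSAlow (n = 4) and 29.9 ± 4.58% in HS + TSAhigh (n = 3). bZIP17.4 held 33.8 ± 4.85%, 49.98 ± 1.82% and 55.5 ± 5.23% in the same order. The ratio of the counts of these copies needs no library scaling. On the log2 scale bZIP17.1 over bZIP17.4 was 0.16, 0.68 and 0.48 in the pollen libraries, so bZIP17.1 had more counts in all 3. It was -0.48, -0.56, -0.58 and -0.59 in HS + TSAlow, and -0.88, -0.54 and -1.20 in HS + TSAhigh, so bZIP17.4 had more counts in all 7 HS + TSA libraries. The difference from pollen was -0.99 in HS + TSAlow and -1.31 in HS + TSAhigh. Neither reached p = 0.05 in the exact two-sided permutation test (p = 0.0571 and p = 0.1), and these are the smallest p that 3 against 4 and 3 against 3 libraries can give here. With Benjamini-Hochberg adjustment over the 9 ratio tests both became 0.343. The summed bZIP17 level was 26.8 ± 2.56 CPM per kb in pollen, 24.3 ± 1.87 in HS + TSAlow and 19.9 ± 4.76 in HS + TSAhigh (SD).

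bZIP17.2 stood apart from the other copies, because its reads were present in some HS + TSA libraries and absent from others of the same treatment. Its raw counts were 465, 550 and 866 in pollen, 0, 158, 304 and 0 in HS + TSAlow and 0, 50 and 158 in HS + TSAhigh. As CPM these are 4.74, 5.57 and 7.95 in pollen, 2.60 and 5.38 in HS + TSAlow libraries 2 and 3, and 0.861 and 2.60 in HS + TSAhigh libraries 2 and 3. HS + TSAlow libraries 1 and 4 and HS + TSAhigh library 1 had no count, which allows at most 3 counts, or 0.0569, 0.0541 and 0.0428 CPM. These limits cover counting error only. Each pollen library was at least 83.4-fold higher than the highest of these limits, and each of the other 4 HS + TSA libraries at least 15.1-fold higher.

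With this spread within treatments, bZIP17.2 did not pass the edgeR test in HS + TSAlow (log2 fold change -1.61, SE 1.78, adjusted p = 0.500) or in HS + TSAhigh (-2.40, SE 2.01, adjusted p = 0.358). All 3 HS + TSAhigh libraries lay below all pollen libraries. Without the 3 libraries at 0, an alternative added after seeing the data, bZIP17.2 was lower in HS + TSAhigh than in pollen (log2 fold change -1.81, edgeR adjusted p = 0.0238) and did not pass in HS + TSAlow (-0.61, adjusted p = 0.382). HS + TSAlow libraries 2 and 3 were the ones of that group with bZIP17.2 counts. Leaving them out left the group at 0, so the lower call there (edgeR adjusted p = 0.0169) was fixed by that choice. Both alternatives divide the libraries by whether bZIP17.2 had counts, so their p-values do not measure an effect of treatment. With limma-voom on all libraries bZIP17.2 was lower in both groups (adjusted p = 0.0388 and 0.0483).

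The genes around bZIP17.2 shared this pattern. Within 500 kb on either side lie 43 other genes with at least 50 counts in each pollen library. Their median log2 ratio to the pollen mean, on CPM + 0.5, was -2.71, -0.53, -0.07 and -2.72 in HS + TSAlow libraries 1 to 4 and -2.79, -1.65 and -1.36 in HS + TSAhigh libraries 1 to 3. bZIP17.2 itself had -3.72, -1.09, -0.16 and -3.72 in HS + TSAlow, and -3.72, -2.28 and -1.09 in HS + TSAhigh. The 3 libraries without bZIP17.2 reads were thus also the lowest for its neighbours, HS + TSAhigh libraries 2 and 3 were intermediate, and HS + TSAlow library 3 was at the pollen level. The number of the 43 genes with 0 counts was 17, 0, 0 and 18 in HS + TSAlow and 22, 3 and 3 in HS + TSAhigh. Of these genes, 15 were at 0 in all 3 of the libraries that lacked bZIP17.2 reads. Over all 33613 genes with at least 50 counts in each pollen library, the medians were -0.23 to -0.11 in the 7 HS + TSA libraries.

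Along C04 the pattern covered the end of the chromosome up to about 7 Mb. In the 7 bins of 1 Mb from its start, which hold 242 such genes, the bin medians ranged from -3.29 to -1.37 in HS + TSAlow library 1, from -3.53 to -1.37 in library 4 and from -3.53 to -1.23 in HS + TSAhigh library 1. In the same bins the medians ranged from -1.83 to -1.02 and from -1.45 to -0.80 in HS + TSAhigh libraries 2 and 3. HS + TSAlow library 2 had -0.76 to -0.24 and library 3 had -0.06 to 0.37. In the 43 later bins with at least 20 genes, all 7 libraries had medians between -0.68 and 0.38. bZIP17.3 and bZIP17.4, further along the same chromosome, lie outside the stretch.

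**Figure D2:**
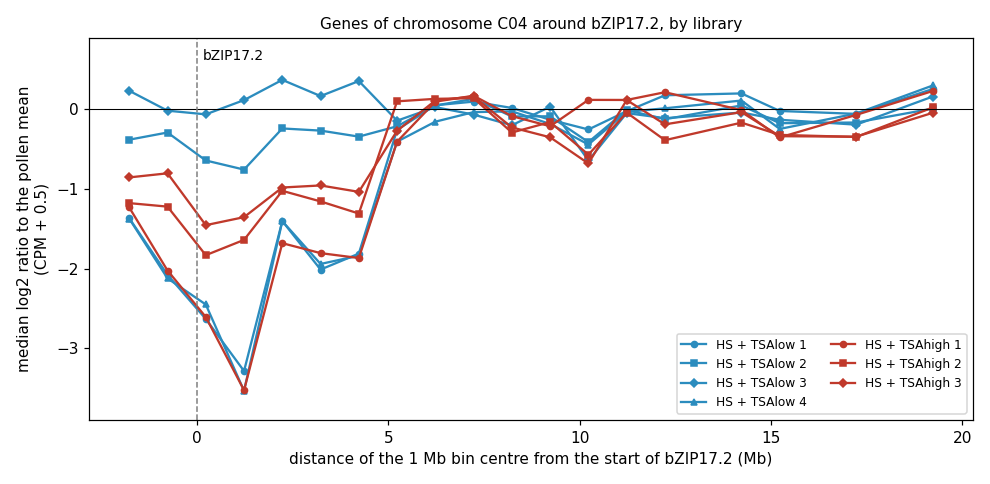
Each line is 1 HS + TSA library (blue, HS + TSAlow; red, HS + TSAhigh). The y axis is the median log2 ratio of CPM + 0.5 to the pollen mean over the genes of a 1 Mb bin of C04 with at least 20 genes, and the x axis is the distance of the bin centre from the start of bZIP17.2 (dashed line). HS + TSAlow libraries 1 and 4 and HS + TSAhigh library 1 run lowest at the end of the chromosome that holds bZIP17.2, HS + TSAhigh libraries 2 and 3 lie between, and all 7 lines lie near 0 further along.

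No neighbourhood of another member showed this. Around each of the other 8 copies, 25 to 108 genes met the same count minimum, the medians in the 7 libraries lay between -0.43 and 0.30, and at most 1 gene was at 0 in those 3 libraries. Over all chromosomes, 201 of the 33613 genes (0.598%) were at 0 in the 3 libraries, of which 100 were on C02, 47 on C04 and 24 on C07. If at least 50 counts in each of the other 7 libraries were also required, 47 genes were left: 26 on C02 between 46497879 and 62061779, 18 on C04 between 459154 and 6054590 and 3 on C07 between 46069497 and 47184632. The 3 libraries were singled out by the counts of bZIP17.2, so these values are a description without a test. The labels give all libraries 1 genotype. Whether the donor material, the culture or the library accounts for the missing stretch was not tested.

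S1P.2, a copy of the protease described as acting first, fell in HS + TSAlow. Its levels were 22.0, 19.1 and 18.6 CPM in pollen, 9.95, 6.48, 16.5 and 10.4 CPM in HS + TSAlow and 20.6, 14.5 and 11.0 CPM in HS + TSAhigh. All HS + TSAlow libraries lay below pollen, while HS + TSAhigh overlapped both groups. The log2 fold change was -0.88 in HS + TSAlow (SE 0.30, edgeR adjusted p = 0.0313) and -0.37 in HS + TSAhigh (SE 0.32, adjusted p = 0.360). The difference between the HS + TSA groups itself did not pass (0.50, SE 0.30, edgeR adjusted p = 0.299). The call in HS + TSAlow was lost without any 1 of the pollen libraries, or without HS + TSAlow library 1 or 4 (adjusted p = 0.0585 to 0.0951), at log2 fold changes of -0.93 to -0.80, and with the replicate number as a block (-0.90, adjusted p = 0.0657).

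S1P.1 did not pass in any comparison. It had 24.4, 24.5 and 31.8 CPM in pollen, 17.09, 24.7, 27.7 and 19.1 CPM in HS + TSAlow and 22.8, 30.8 and 26.8 CPM in HS + TSAhigh. The groups overlapped, and within HS + TSAlow libraries 1 and 4 were lower than libraries 2 and 3. The log2 fold change was -0.28 in HS + TSAlow (SE 0.20, edgeR adjusted p = 0.285) and -0.0051 in HS + TSAhigh (SE 0.22, adjusted p = 0.988). Without HS + TSAlow libraries 2 and 3 it was lower in HS + TSAlow than in pollen (-0.61, edgeR adjusted p = 0.0491). That left libraries 1 and 4, the replicates nearest to each other, so this p may understate the spread between replicates.

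The log2 ratio of S1P.1 over S1P.2 was 0.15, 0.36 and 0.77 in pollen, 0.78, 1.93, 0.75 and 0.87 in HS + TSAlow and 0.15, 1.09 and 1.29 in HS + TSAhigh. S1P.1 had more counts than S1P.2 in all 10 libraries, and the groups overlapped. The difference from pollen was 0.66 in HS + TSAlow (exact permutation p = 0.114) and 0.41 in HS + TSAhigh (exact permutation p = 0.4). Summed over both copies, S1P stood at 14.5 ± 1.05 CPM per kb in pollen, 10.2 ± 2.36 in HS + TSAlow and 13.1 ± 1.20 in HS + TSAhigh (SD).

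S2P, the intramembrane protease, had summed levels of 11.1 ± 2.05 CPM per kb in pollen, 8.36 ± 1.15 in HS + TSAlow and 8.02 ± 1.64 in HS + TSAhigh (SD). The group means lay below those of bZIP17 and S1P, but the libraries of S2P and S1P overlapped in pollen and HS + TSAlow. S2P.2 had 6.48, 6.32 and 5.91 CPM in pollen, 6.41, 4.63, 5.27 and 4.51 CPM in HS + TSAlow and 3.43, 4.51 and 3.50 CPM in HS + TSAhigh. All HS + TSAhigh libraries lay below pollen and, by the unrounded values, below HS + TSAlow. The log2 fold change in HS + TSAhigh was -0.71 (SE 0.29) and just missed the threshold (unadjusted p = 0.0284, edgeR adjusted p = 0.0591). It passed with DESeq2 (adjusted p = 0.0136) and limma-voom (adjusted p = 0.0383). In HS + TSAlow it was -0.26 (SE 0.26, edgeR adjusted p = 0.452).

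S2P.3 was the more abundant copy. Its levels were 18.7, 12.4 and 12.4 CPM in pollen, 9.82, 8.28, 9.80 and 13.5 CPM in HS + TSAlow and 11.7, 13.4 and 8.31 CPM in HS + TSAhigh. The groups overlapped, with pollen library 1 the highest of all. No comparison passed (log2 fold changes against pollen -0.49, SE 0.25, edgeR adjusted p = 0.139, and -0.38, SE 0.27, adjusted p = 0.267). S2P.3 held 69.3 ± 4.23% of the S2P level per kb in pollen, 66.0 ± 6.22% in HS + TSAlow and 74.0 ± 3.52% in HS + TSAhigh (SD). The log2 ratio of S2P.2 over S2P.3 was below 0 in all 10 libraries (-1.76 to -0.61), and its 3 group differences of -0.54 to 0.21 gave exact permutation p = 0.171 to 0.4.

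**Figure D3:**
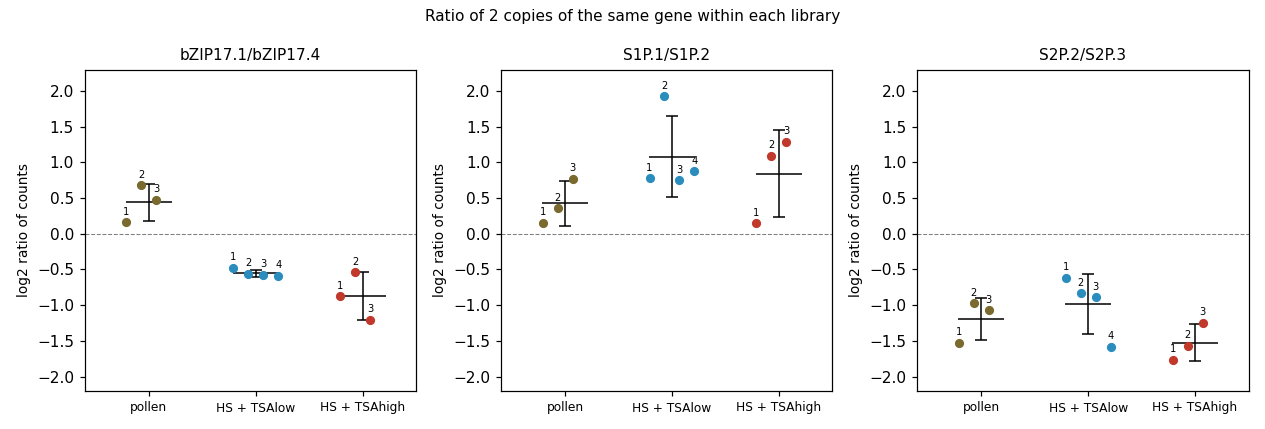
The y axis is the log2 ratio of the counts of 2 copies within a library, and the x axis the 3 groups. Points are libraries with their replicate number and bars the mean ± SD (n = 3, 4 and 3). bZIP17.1 over bZIP17.4 is above 0 in all pollen libraries and below 0 in all HS + TSA libraries, while the groups overlap for S1P and S2P.

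Between HS + TSAhigh and HS + TSAlow, 0 of 9 members were called with edgeR, where 5.46% of all genes tested were lower and 4.94% higher. DESeq2 and limma-voom also called 0, and 1 member (bZIP17.1) had an unadjusted p of at most 0.05 in edgeR. The members' median log2 fold change was -0.15, against 0.02 over all genes. All libraries of bZIP17.1 and S2P.2 were lower in HS + TSAhigh than in HS + TSAlow, and no member had all libraries higher. That is 2 of 9, where 12.1% of all genes had all libraries lower and 11.9% all higher. Against pollen, 3 of 9 members had all libraries lower in HS + TSAlow (24.4% of all genes lower, 29.7% higher) and 4 of 9 in HS + TSAhigh (27.2% lower, 31.5% higher), and 0 had all libraries higher.

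**Figure D4:**
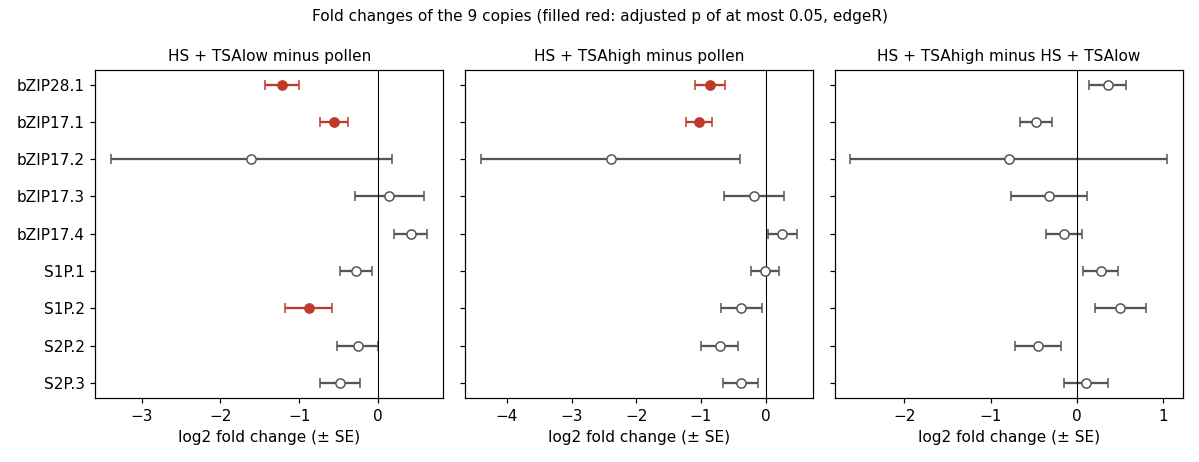
The x axis is the log2 fold change with its SE for each of the 9 copies (y axis) in the 3 comparisons. Filled red points have an edgeR adjusted p of at most 0.05. bZIP28.1 and bZIP17.1 lie below 0 in both comparisons with pollen, S1P.2 is filled for HS + TSAlow, and no point is filled between the HS + TSA groups.

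Ranked by CPM per kb, the order of the members was headed by bZIP28.1 in pollen (16.8), ahead of bZIP17.1 (12.0), bZIP17.4 (9.16), S1P.1 (8.36), S2P.3 (7.78) and S1P.2 (6.12). S2P.2 (3.37), bZIP17.2 (2.90) and bZIP17.3 (2.81) were the lowest. Only bZIP28.1 and bZIP17.1, and S1P.2 and S2P.2, did not overlap as neighbours in this order. In HS + TSAlow bZIP17.4 came first (12.2) and overlapped with no other, followed by bZIP17.1 (8.13), bZIP28.1 (7.19) and S1P.1 (6.87), each of which overlapped with the next. In HS + TSAhigh bZIP17.4 (11.0), bZIP28.1 (9.21) and S1P.1 (8.33) led and overlapped, while bZIP17.1 (5.86) came after S2P.3 (5.96). bZIP17.2 was last in both HS + TSA groups (0.949 and 0.550).

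Factors were set against proteases as the summed CPM per kb of the 5 bZIP copies over that of the 4 protease copies. The ratio was 1.65, 1.81 and 1.66 in pollen, 1.69, 1.82, 1.53 and 1.80 in HS + TSAlow and 0.953, 1.36 and 1.91 in HS + TSAhigh. The pollen and HS + TSAlow means were equal to 3 digits (1.71 ± 0.0866 and 1.71 ± 0.135, SD), while the sums themselves were lower in HS + TSAlow. This match includes bZIP17.2, which had 0 counts in HS + TSAlow libraries 1 and 4. Without that copy the pollen mean was 1.59. The HS + TSAlow mean fell less and lay above it, and the libraries of these groups still overlapped. Factors had 43.6 ± 1.99 CPM per kb in pollen and 31.5 ± 2.40 in HS + TSAlow, and proteases 25.6 ± 2.15 and 18.6 ± 2.34. HS + TSAhigh had a mean ratio of 1.41 ± 0.482 with the widest spread, and its library 1 was the only one of the 10 in which proteases exceeded factors. No test was made of these sums.

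The rest of the list gives the context of the pathway. Of the 43 other listed genes with counts, 27 were lower and 3 higher in HS + TSAlow than in pollen (median log2 fold change -1.07), and the same numbers held in HS + TSAhigh (-1.03). Over all genes tested, 17.35% were lower and 26.4% higher in HS + TSAlow, and 18.8% and 27.5% in HS + TSAhigh. By the paper, the list was drawn from arabidopsis ER stress genes with a *B. napus* ortholog. The paper reported most of them as lower than in pollen in these same samples, so the counts are not independent evidence of a direction. BiP, the chaperone that binds bZIP28 in the ER, is listed as BiP1, BiP2 and BiP3. BiP2 was lower in 5 of 5 copies in HS + TSAlow and 4 of 5 in HS + TSAhigh, and BiP3 in 2 of 2 in both. The 1 BiP1 copy was called lower in HS + TSAlow only. BZIP60, the factor of the parallel branch, was lower in 2 of 2 copies in both groups, whereas 0 of 2 IRE1a copies, the RNA-splicing sensor of that branch, were called in either. Of 3 copies of IRE1b, the other sensor, 0 were called in HS + TSAlow and 1 was lower in HS + TSAhigh. Both copies of the cargo receptor P24DELTA5 (2 of 2) were higher in both groups. SDF2, a partner of BiP, was lower in 4 of 4 copies in both. Between the HS + TSA groups 0 of the 43 were lower and 3 higher, where 5.46% of all genes tested were lower and 4.94% higher.

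Likeness to other genes was taken as Pearson's r of log2(CPM + 1) over the 10 libraries, which share group, depth and library effects, so the values are a description. Among the 51 other genes of the list, bZIP28.1 was most like BiP2.4 (r = 0.913) and ECA4.1, a calcium pump copy (r = 0.907). bZIP17.1 was most like SDF2.2 (r = 0.926) and then S2P.2 (r = 0.857). bZIP17.2 was most like copies of the ER chaperone calnexin, CNX1.2 (r = 0.913) and CNX1.4 (r = 0.877). CNX1.4 lies on C02 at 60065961–60068929, inside the interval of C02 given above. CNX1.2, the closer of these, lies on A06. There 0 of 1729 genes with at least 50 counts in each pollen library were at 0 in the 3 libraries without bZIP17.2 reads. Over all 45263 other genes, the one most like bZIP17.2 was C04p00770.1_BnaDAR (r = 0.988), also on C04. bZIP17.3 and bZIP17.4 had no listed gene above r = 0.492 and r = 0.678, and S1P.1, S1P.2 and S2P.3 had their closest listed genes at r = 0.863, 0.826 and 0.787 (PDIL2-2/PDI10.2, BiP1.1 and BiP1.1). The number of genes with r above 0.9 was 643 for bZIP28.1, 776 for bZIP17.1, 327 for bZIP17.2 and 114 for S2P.2, but 3 to 57 for the other 5.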

How the data were processed

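RNA of 10 libraries (3 pollen, 4 HS + TSAlow, 3 HS + TSAhigh) was made into libraries by SMART-seq v4, a method without strand information. The deposited raw counts of each gene were produced, per the submitters' processing notes, with STAR 2.7.10a and featureCounts (Subread 1.5.2) on the Darmor-bzh version 10 genome. They also deposited a normalized signal for 51141 genes, equal to the raw counts divided by 1 DESeq2 size factor per library. It was used as an alternative scaling of the factor to protease ratio. The size factor cancels within a library, so this alternative could not change the ratio and is no check of it. Columns with the authors' own fold changes, p-values and test statistics were not used. Of 61170 rows, 1712 repeated another row and were removed, which left 59458 genes. Among counts of at least 10, 70.3% were even, as arises when each mate of a pair is counted. Counts therefore overstate independent fragments. Among member counts above 0, 40% were even for bZIP17.1, bZIP17.3 and bZIP17.4, and 80% to 100% for the other members. The overstatement may thus differ between the genes ranked or summed per kb, which was not tested.

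The counts were tested with edgeR 4.0.16 in R 4.3.3 (filterByExpr with minimum count 10 and minimum total 15, TMM, robust quasi-likelihood F test, Benjamini-Hochberg adjustment over 45264 genes), with all libraries in 1 fit. The SE is the absolute log2 fold change over the square root of F. Copy ratios used counts + 1 and an exact two-sided permutation test that doubles the smaller tail, with adjustment over 9 tests. The labels call the replicates biological, and p-values measure the spread between these libraries. The code was tested on simulated data. Tables were made with pandas 2.3.3, scipy 1.17.1 and numpy 2.4.6 in Python 3.11.15, and figures with matplotlib 3.10.9.

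All 9 members were named, with every other gene of the study's list as family counts. The members, lists and alternatives were chosen with earlier results of these data known. Alternatives were DESeq2 1.42.0, limma-voom (limma 3.58.1), other scalings, filters and thresholds, 2-group fits, the replicate block and libraries left out. The alternatives that leave out libraries 2 and 3 of both HS + TSA groups, or HS + TSAlow libraries 1 and 4 with HS + TSAhigh library 1, were added after seeing the data. Same-numbered HS + TSAlow and HS + TSAhigh libraries deviated together (r = 0.352, 0.135 and 0.207). Differently numbered ones also did: HS + TSAlow library 4 with HS + TSAhigh library 1 (r = 0.286), library 3 with library 2 (r = 0.189) and library 2 with library 3 (r = 0.212). All remaining pairs between these groups were negative (r = -0.282 to -0.177). HS + TSAlow libraries 1 and 4 thus deviated with HS + TSAhigh library 1, and libraries 2 and 3 deviated together across the groups. The first set is the libraries without bZIP17.2 reads. Deviations were from group means, which favours opposite signs within a group. The cause of the division was not tested. The numbers alone therefore do not establish pairs, and the main fit had no block for them or for these sets. Pollen did not pair with either group (r = -0.00109 to 0.102). Sequences of the members were not used here.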

Additional observations from a re-analysis of the deposited data

Results flagged for a closer look

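Of 13 sets of 4 HS + TSAlow values, which are the members' levels, the copy ratios and the factor to protease ratio, 1 held a library far from the others. The log2 ratio of S1P.1 over S1P.2 was 1.93 in HS + TSAlow library 2, against 0.75 to 0.87 in the other 3, and the gap made up 0.895 of the whole range. S1P.2 had its lowest level of all libraries there, 6.48 CPM, while S1P.1 had 24.7 CPM. Chance alone would single out about 1 in 20 such sets.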

How the results depend on the processing

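Over 27 settings, the 27 member fold changes kept direction and side of the threshold in 674 values, lost a call in 19, gained one in 17 and turned in sign in 18. bZIP28.1 in HS + TSAlow and bZIP17.1 in HS + TSAhigh kept their calls under every setting, and bZIP28.1 in HS + TSAhigh lost its call only where a log2 fold change of 1 was required. Members lower in HS + TSAlow than in pollen numbered 3, but 1 without libraries 1 and 4 of that group, at an adjusted p of at most 0.01 or at a log2 fold change of at least 1, and 1 to 3 with 1 library left out. Members lower in HS + TSAhigh than in pollen numbered 2, but 4 with limma-voom, 1 at a log2 fold change of at least 1, and 2 to 3 with 1 library left out. Members higher in HS + TSAhigh than in HS + TSAlow numbered 0 to 1 with 1 library left out. Without HS + TSAlow and HS + TSAhigh libraries 2 and 3, which leaves 1 HS + TSAhigh library assumed to vary like the rest, 5 members were lower in HS + TSAlow than in pollen, 4 in HS + TSAhigh than in pollen, and between the HS + TSA groups 1 was lower (bZIP17.1) and 1 higher (S1P.2). There bZIP17.4 in HS + TSAhigh against pollen turned to -0.22, and bZIP28.1 and S2P.3 between the HS + TSA groups to -0.35 and -0.063. Without the 3 libraries at 0 for bZIP17.2, bZIP17.3 turned to 0.11 and S1P.1 to 0.10 in HS + TSAhigh against pollen, and bZIP17.3 and bZIP17.4 to 0.073 and 0.029 between the HS + TSA groups. S1P.1 in HS + TSAhigh was 0.0092 with upper-quartile scaling and 0.00097 with halved counts, against -0.0051. S2P.3 between the HS + TSA groups was -0.079 without HS + TSAlow libraries 2 and 3. bZIP17.2 between them was 0.20 with limma-voom and 9.42 without HS + TSAlow libraries 2 and 3, a fitted value against libraries at 0 that is no bound. With 1 library left out, signs turned for bZIP17.3 in HS + TSAlow (-0.067 to 0.28) and HS + TSAhigh (-0.48 to 0.11) and S1P.1 in HS + TSAhigh (-0.19 to 0.13), and between the HS + TSA groups for S2P.3 (-0.053 to 0.27) and bZIP17.2 (-2.23 to 0.43). The S1P.1 over S1P.2 difference between the HS + TSA groups was -0.24, 0.26 by medians and -0.46 to 0.11 with 1 library left out. Factors over proteases fell to 1.35 in pollen and 1.30 in HS + TSAlow without division by length, and to 1.59 in pollen without bZIP17.2. The HS + TSAhigh mean also fell without division by length and stayed the lowest. Without bZIP17.2 the HS + TSAlow and HS + TSAhigh means fell less than that of pollen. The replicate block gave 2 members lower in HS + TSAlow, losing S1P.2, 2 lower in HS + TSAhigh and 0 between the HS + TSA groups, and changed no other call. The causes of these shifts were not tested. No value was obtained for bZIP17.2 between the HS + TSA groups where all libraries left were at 0. Counts of 0 limit bZIP17.2 to the upper limits given with its values.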
